A study of Homo sapiens with 5 samples.

Results

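The comparison set H1 cells held for 6 days in E8 medium with BMP4 and 16 mM added pyruvate against H1 cells held for 2 days in that same mixture, across all genes. H1 is an established line of human embryonic stem cells, E8 is a chemically defined medium, and the plates were coated with Matrigel, a basement membrane gel. BMP4 is a signalling protein used to start mesoderm differentiation, and the labels give no dose for it. The series asked, by its title, whether a high level of outside pyruvate favours mesoderm by way of AMPK, mTOR and cell metabolism. Members were all genes with a named probe whose detection p was below 0.01 on either array, which gave 9808 genes detected on both, 734 at day 6 only, 1086 at day 2 only and 33 through a dimmer probe. These were 11661 of the 12441 genes detected on any of the 5 arrays of the series. The other 3 arrays, all of day 2, held BMP4 alone, 16 mM pyruvate alone and E8 with neither, and they are quoted here to place the levels of the 2 arrays compared.

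Each condition had 1 array, so no value has a replicate check, no p-value is given, and the number of arrays limits the precision. All 5 cultures were of the 1 cell line. No culture of day 6 without BMP4 or without pyruvate was analysed here, so the length of treatment, the age of the culture and its density cannot be told apart. In RNA from a whole culture, fewer cells of a type and less RNA per cell cannot be told apart either. Levels are linear normalized signals, background corrected and quantile normalized over the 5 arrays, with an offset of 16 included, and they do not compare one gene with another. A gene was called higher or lower where its log2 difference, day 6 minus day 2, reached 1 in size, which is 2-fold, and its probe was detected on the brighter array. Where the probe was undetected on the dimmer array the fold is a bound, written "at least", set against the lowest signal of a detected probe there. The call used the measured signal all the same, so the counts include genes whose bound is below 2-fold.

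Of the 11661 genes, 1571 (13.5%) were higher at day 6 and 1511 (13%) were lower, with a median difference of -0.01. These shares are the background for every count below, and the median over the genes of this comparison detected on both arrays was 0.02. A gene detected at day 6 only was nearly bound to be brighter there, and one detected at day 2 only to be dimmer at day 6. For several lists where such genes are many, their number or the median over members detected on both arrays is given. The best repeat measure on the arrays was a further probe of the same gene. Among 2371 genes with 2 probes detected on both arrays, 448 passed the size rule by the brighter probe. The second probe passed it in the same direction in 241 of those and had the opposite sign in 37, and the difference between probes had an SD of 0.647. Values given for a further probe are log2 differences, day 6 minus day 2. A log2 difference near 1 is therefore close to the disagreement between probes.

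The day 2 array of BMP4 plus pyruvate stood apart from its neighbours. Across 9755 genes with signal on each of the 4 day 2 arrays, a gene was counted only where the other 3 arrays lay within 0.5 in log2 of each other. By that rule the array of BMP4 plus pyruvate lay 0.5 or more above those 3 in 430 genes and below them in 596. The array of BMP4 alone did so in 43 and 37, that of pyruvate alone in 84 and 82, and E8 in 38 and 41. For this reason the counts for the gene lists are also given, as higher and lower, with the array of BMP4 alone at day 2 in place of the day 2 array that held both additions. Against BMP4 alone, 1372 of 11384 genes (12.1%) were higher and 1255 (11%) were lower. Both sets of counts share the day 6 array, so neither supports the other.

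BMP4 signals through receptors that phosphorylate SMAD proteins, which switch on genes such as ID1 and MSX1. In the embryo, together with WNT and NODAL, it leads pluripotent cells through the primitive streak, where the T-box factors TBXT and EOMES and the homeobox factor MIXL1 are made, into mesoderm. Later lateral and cardiac mesoderm is known for HAND1, ISL1 and GATA4, while long exposure of human stem cells to BMP4 without other factors is also known to give amnion-like or trophoblast-like cells. Human pluripotent cells rely heavily on glycolysis, whose end product is pyruvate.

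Genes that were all but absent at day 2 and bright at day 6 made up the top of the comparison. In all, 476 genes were 4-fold or more higher and 319 were 4-fold or more lower, and at 16-fold the counts were 99 and 18. ISL1, a homeobox factor of early heart progenitors and amnion, read 7513 at day 6, against 42.7 at day 2, with 42.1 for BMP4 alone, 40.6 for pyruvate alone and 33.9 for E8. It was detected on the day 6 array only, at least 147-fold above day 2. TMOD1, tropomodulin, which caps actin filaments in heart and red cells, read 5654 at day 6, against 33.7 at day 2, with 55.5 for BMP4 alone, 47.4 for pyruvate alone and 51.1 for E8, at least 111-fold higher at day 6. BMPER, a secreted modulator of BMP signals, read 4966 at day 6, against 41.3 at day 2, with 25.5 for BMP4 alone, 28.7 for pyruvate alone and 29.6 for E8. Like ISL1 it was detected at day 6 only, at least 97.4-fold above day 2, while its dimmer second probe differed by 1.92. Across all genes, 439 were detected at day 6 and on none of the 4 day 2 arrays, and 351 of them passed the size rule.

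Other genes at the top were already measurable at day 2. ALPK2, an alpha-kinase studied in zebrafish heart development, read 6783 at day 6, against 54.5 at day 2, with 29.5 for BMP4 alone, 26.4 for pyruvate alone and 24.0 for E8, which is 124-fold. APLNR, the apelin receptor found on early mesoderm, read 8328 at day 6, against 99.2 at day 2, with 41.7 for BMP4 alone, 31.0 for pyruvate alone and 24.4 for E8, or 84.0-fold, and neither ALPK2 nor APLNR was detected on the BMP4, pyruvate or E8 arrays. The hyaluronan-linking protein HAPLN1 read 13575 at day 6, against 499.7 at day 2, with 493 for BMP4 alone, 156 for pyruvate alone and 127 for E8, a 27.2-fold difference. NPY, a neuropeptide, read 6924 at day 6, against 277 at day 2, with 51.6 for BMP4 alone, 143 for pyruvate alone and 43.1 for E8, which is 25.0-fold. LPIN1, a phosphatidate phosphatase, was 24.2-fold higher, with 1992 at day 6. CYP27A1, a sterol hydroxylase, was 22.9-fold higher, with 4167 at day 6, against 182 at day 2. All 4 were far brighter at day 6 than on any array of day 2. LPIN1 was dimmest on the day 2 array compared (82.2) and brighter on the BMP4 (264), pyruvate (527) and E8 (387) arrays, so its size depends on which day 2 array is used.

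The bottom of the comparison held genes bright on all 4 arrays of day 2, though not these alone. GAL and HPGD, described below, were also far lower at day 6, but they were brightest on the day 2 arrays with BMP4. CKMT1A, a mitochondrial creatine kinase whose near-identical copy CKMT1B shares its sequence, read 25.5 at day 6, against 1169.6 at day 2, with 976 for BMP4 alone, 1156 for pyruvate alone and 1631 for E8. Day 6 gave no detected signal, and all 4 day 2 arrays were bright. POLR3G, a subunit of RNA polymerase III typical of pluripotent cells, read 133 at day 6, against 2631 at day 2, with 2323 for BMP4 alone, 4865 for pyruvate alone and 4483 for E8, or 19.8-fold lower, with other probes at -3.79 and -1.32. ADD2, a cytoskeletal adducin, read 103 at day 6, against 1822 at day 2, with 2137 for BMP4 alone, 2159 for pyruvate alone and 2256 for E8, or 17.7-fold lower, and both genes were bright on every day 2 array. In all, 480 genes were detected on all 4 arrays of day 2 and not at day 6, and 323 of them passed the size rule.

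**Figure D1:**
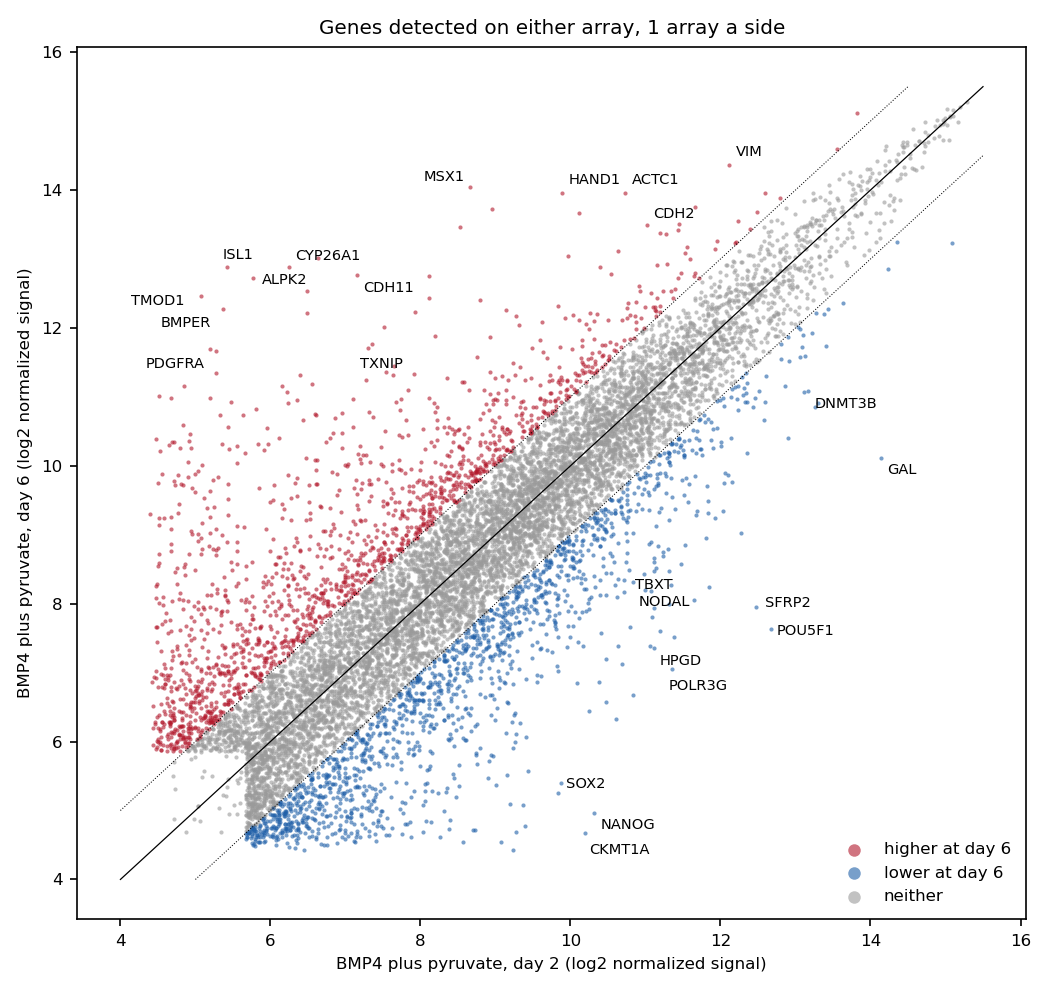
Each point is 1 of 11661 genes, with its log2 normalized signal at day 6 on the vertical axis and at day 2 on the horizontal axis, both for BMP4 plus pyruvate and 1 array a side. Dotted lines mark 2-fold, red points are the 1571 genes higher at day 6, blue points the 1511 lower, and the labelled genes show ISL1, BMPER and CYP26A1 far above the diagonal and POU5F1, NANOG and GAL far below it.

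Transcripts of the pluripotency network were lower at day 6. Of 38 measured genes of the list, 1 was undetected on both arrays, 25 were lower, 0 were higher and 12 were neither. The median difference was -1.88, or -1.72 over the 26 members detected on both arrays. Against BMP4 alone the counts were also 25 lower and 0 higher, with a median of -2.04. POU5F1, which encodes OCT4, read 199 at day 6, against 6521 at day 2, with 5311 for BMP4 alone, 4613 for pyruvate alone and 5367 for E8. All 4 arrays of day 2 were bright, which fits the labelled cell type, and day 6 was 32.8-fold below the day 2 array compared. NANOG, a homeobox factor of the same core network, read 31.3 at day 6, against 1281 at day 2, with 1388 for BMP4 alone, 2359 for pyruvate alone and 1738 for E8, and its second probe differed by -5.57. It was undetected at day 6, which puts it at least 22.0-fold lower. SOX2, the partner of OCT4 on DNA, read 38.3 at day 6, against 909 at day 2, with 3764 for BMP4 alone, 5924 for pyruvate alone and 6379 for E8. It was undetected at day 6 and at least 15.6-fold lower, and it was already dimmer on the day 2 array with both additions than on the other 3.

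OCT4 and SOX2 are known to bind together at a composite element just before the human NANOG gene. The 250 bases before the NANOG start are shown because all 3 genes of this circuit were lower at day 6. RefSeq (GRCh38.p14) places them at chr12:7789152-7789401 on the + strand, and capitals mark the match to the element CATTGT, any 1 base, ATGCAAA, here on the opposite strand, -120 to -107 from the start.
NANOG: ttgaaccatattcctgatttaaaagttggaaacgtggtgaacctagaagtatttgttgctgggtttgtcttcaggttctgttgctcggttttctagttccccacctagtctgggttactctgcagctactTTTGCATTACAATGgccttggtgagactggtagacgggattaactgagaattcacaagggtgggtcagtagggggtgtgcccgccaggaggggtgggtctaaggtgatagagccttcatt
A search of both strands found this motif in 2 of 35116 promoter windows of 250 bases (0.0057%). It was chosen with NANOG in mind and no other spelling was searched, so the small share is not a result. The match describes the letters only, since no array here measured binding.

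Other genes of the pluripotency list differed by unequal amounts. UTF1, a chromatin factor of stem cells, read 21.5 at day 6, against 600.0 at day 2, with 639 for BMP4 alone, 1288 for pyruvate alone and 1296 for E8. The probe gave no detected signal at day 6, and the level was at least 10.3-fold lower. DNMT3B, the de novo DNA methyltransferase, read 2166 at day 6, against 9198 at day 2, with 11029 for BMP4 alone, 16792 for pyruvate alone and 14303 for E8, or 4.25-fold lower, and a second probe differed by -2.17. L1TD1, an RNA-binding protein of stem cells, was 5.28-fold lower, with 1857 at day 6, against 9801 at day 2. GAL, the neuropeptide galanin, read 1116 at day 6, against 17993 at day 2, with 9134 for BMP4 alone, 2220.3 for pyruvate alone and 2308 for E8. It was 16.1-fold lower at day 6, and the 2 day 2 arrays with BMP4 were well above those without it. The list members LIN28B, SALL4 and EPCAM, singled out after their values were seen, differed by 0.61, -0.11 and 0.03, inside the size rule. EPCAM, an epithelial adhesion molecule, read 7039 at day 6, against 6907 at day 2.

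The primitive streak genes split into a lower and a higher set. Of 29 measured genes, 8 were undetected on both arrays, 12 were higher, 6 lower and 3 neither, with a median of 1.18, and 4 were detected at day 6 only. Against BMP4 alone, 16 of 20 detected genes were higher and 2 lower. TBXT, the T-box factor brachyury, read 361 at day 6, against 1754 at day 2, with 177 for BMP4 alone, 39.1 for pyruvate alone and 29.4 for E8. The day 2 array with both additions was the brightest of the 5, and TBXT was 4.86-fold lower at day 6 than there but higher by 1.03 in log2 than with BMP4 alone. MIXL1 read 439 at day 6, against 906 at day 2, with 97.0 for BMP4 alone, 36.8 for pyruvate alone and 28.5 for E8, which is 2.06-fold lower at day 6 than with both additions at day 2 and higher by 2.18 in log2 than with BMP4 alone. The direction for both genes thus turned with the day 2 array used. NODAL, the ligand that patterns the streak, read 301 at day 6, against 3695 at day 2, with 1158 for BMP4 alone, 1693 for pyruvate alone and 709 for E8, or 12.3-fold lower at day 6, and was brightest on the day 2 array compared. CDX4, a caudal homeobox factor, was undetected at day 6 (25.8, against 263 at day 2) and at least 4.51-fold lower.

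EOMES, which specifies cardiac mesoderm and endoderm, was bright at both times. It read 8614 at day 6, against 6474 at day 2, with 2530.0 for BMP4 alone, 37.7 for pyruvate alone and 34.4 for E8, a log2 difference of 0.41 that did not pass the size rule, and it was undetected without BMP4. SP5, a WNT target of the streak, differed by 0.23, with 1423 at day 6, against 1213 at day 2, and was undetected on the other 3 arrays. MESP1, an early cardiac mesoderm factor, read 819 at day 6, against 138 at day 2, with 49.8 for BMP4 alone, 49.9 for pyruvate alone and 72.7 for E8, or 5.94-fold higher. CDX2, a caudal homeobox factor of posterior mesoderm and trophoblast, was 5.13-fold higher, with 333 at day 6, against 64.8 at day 2. LHX1 and FOXA2, both detected on the day 6 array only, stood apart from CER1, singled out after its value was seen and a secreted inhibitor of the anterior mesendoderm, which read 1505 at day 6, against 544 at day 2, or 2.77-fold higher. LHX1, a LIM homeobox factor, read 2030.1 at day 6, against 36.9 at day 2, with 30.2 for BMP4 alone, 25.0 for pyruvate alone and 27.9 for E8, at least 39.8-fold higher. FOXA2, a forkhead factor of node and endoderm, read 942 at day 6, against 31.8 at day 2, with 34.7 for BMP4 alone, 33.1 for pyruvate alone and 29.8 for E8, at least 18.5-fold higher.

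Factors of lateral and cardiac mesoderm were higher as a group. Of 39 measured genes, 8 were undetected on both arrays, 24 were higher, 0 lower and 7 neither. Of these genes, 16 were detected at day 6 only. The median was 2.95, or 1.19 over the 13 detected on both arrays. Against BMP4 alone, 25 of 29 were higher and 1 were lower, the median being 3.44. HAND1, a basic helix-loop-helix factor of lateral mesoderm and extraembryonic tissue, read 15974 at day 6, against 947 at day 2, with 935 for BMP4 alone, 22.6 for pyruvate alone and 21.3 for E8. Both day 2 arrays with BMP4 were nearly equal, those without BMP4 were undetected, and day 6 was 16.9-fold above day 2. MSX1, a homeobox target of BMP, read 16825 at day 6, against 405 at day 2, with 83.4 for BMP4 alone, 41.6 for pyruvate alone and 63.7 for E8, or 41.6-fold. IRX3, an Iroquois homeobox factor, read 5941 at day 6, against 90.0 at day 2, with 62.2 for BMP4 alone, 56.3 for pyruvate alone and 50.4 for E8, or 66.0-fold. MSX1 was graded over the day 2 arrays, brighter with both additions than with BMP4 alone, while IRX3 was dim on all 4.

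Several mesoderm factors appeared at day 6 from an undetected level. PDGFRA, a receptor tyrosine kinase of paraxial and cardiac mesoderm, read 3238 at day 6, against 38.9 at day 2, with 33.8 for BMP4 alone, 97.8 for pyruvate alone and 49.4 for E8, at least 63.5-fold above day 2. MEIS2, a cofactor of HOX proteins, read 3299 at day 6, against 36.7 at day 2, with 24.5 for BMP4 alone, 28.9 for pyruvate alone and 25.5 for E8, at least 64.7-fold above day 2, with a dimmer probe at 2.90. SNAI2, a zinc finger repressor of epithelial genes, read 1509 at day 6, against 43.2 at day 2, with 28.6 for BMP4 alone, 24.8 for pyruvate alone and 25.6 for E8, at least 29.6-fold higher, although a dimmer probe differed less. All 3 were near background at day 2 except for a weak PDGFRA signal with pyruvate alone and in E8. GATA4, a zinc finger factor of heart and endoderm, read 433 at day 6, against 46.8 at day 2, with 22.8 for BMP4 alone, 24.7 for pyruvate alone and 25.7 for E8, at least 8.50-fold higher, and HAND2 read 515 at day 6, against 32.6 at day 2, at least 10.1-fold. GATA6 was 3.05-fold higher, with 240.0 at day 6, against 78.6 at day 2. KDR, the VEGF receptor of vascular and cardiac progenitors, read 1671 at day 6, against 788 at day 2, with 494 for BMP4 alone, 399 for pyruvate alone and 229.9 for E8, or 2.12-fold, just past the size rule (a log2 difference of 1.08, and 0.96 without background correction) and already graded over the day 2 arrays.

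**Figure D2:**
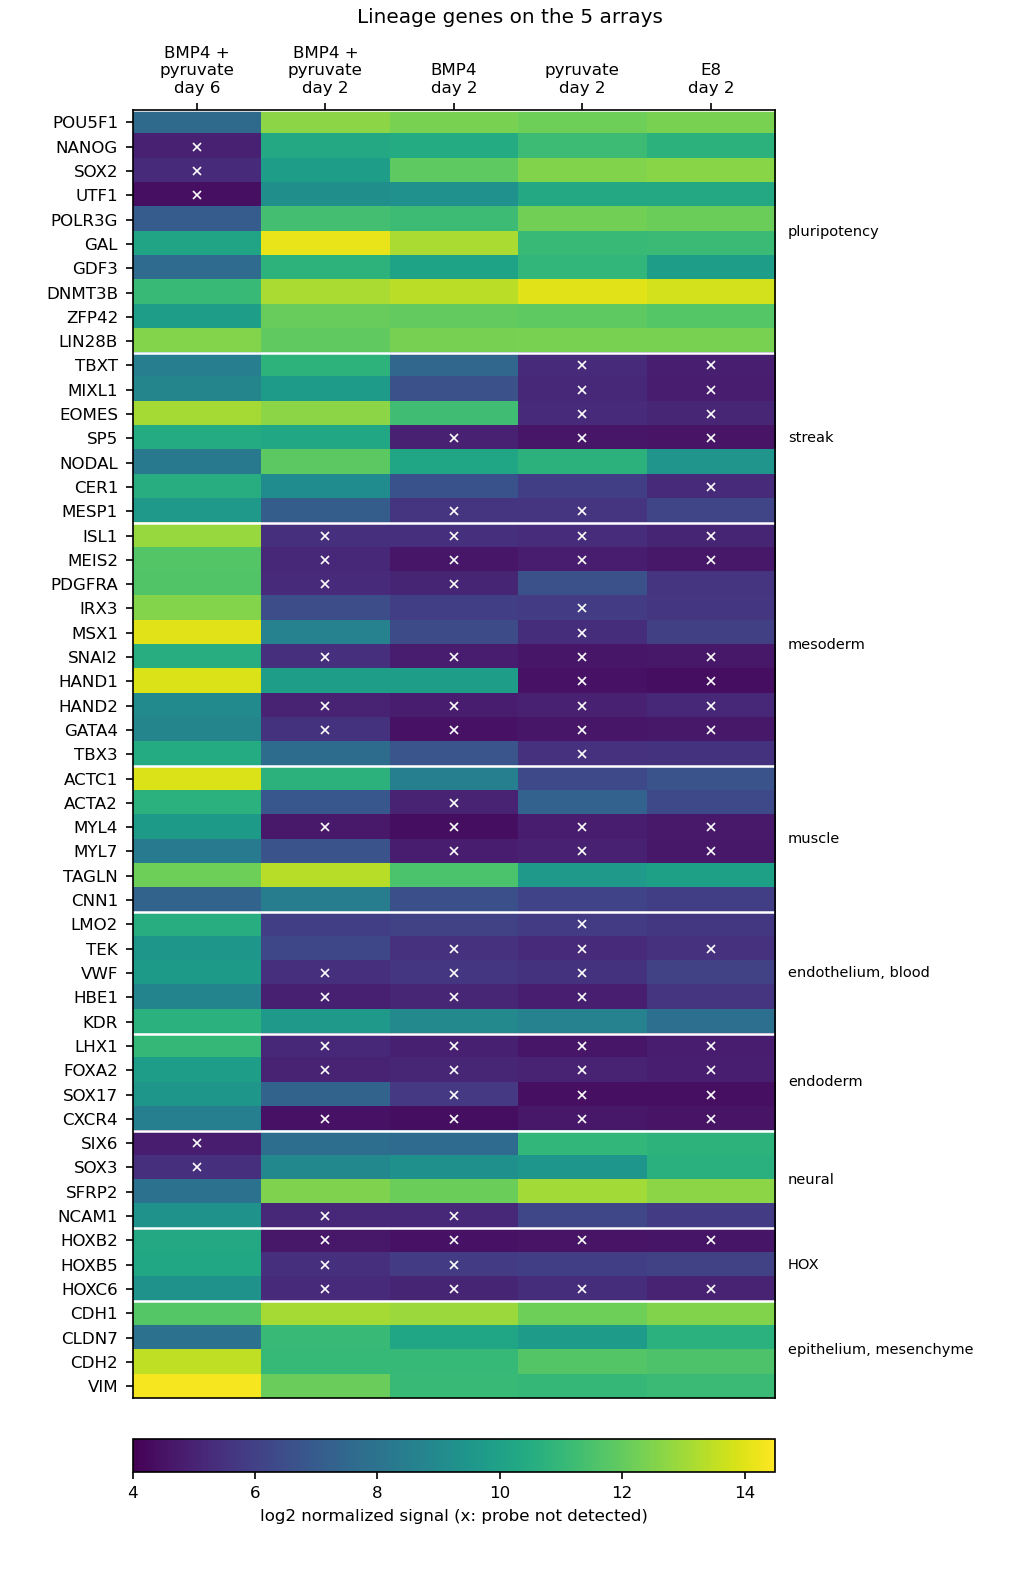
Log2 normalized signal of lineage genes (rows, chosen from the lists after their values were seen) on the 5 arrays (columns, day 6 at the left and E8 at the right), with a cross where the probe was not detected. The mesoderm, endoderm and HOX rows are bright in the day 6 column and mostly crossed at day 2, NANOG, SOX2 and UTF1 are crossed at day 6, and TBXT, MIXL1 and NODAL are brightest in the second column.

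Contractile genes of heart and smooth muscle went both ways. Of 35 measured genes, 15 were undetected on both arrays, among them the cardiac myosins MYH6 and MYH7 and the troponins TNNI1, TNNI3 and TNNC1. Of the other genes, 5 were higher, 4 lower and 11 neither, with a median of -0.36. Against BMP4 alone the median had the other sign, 0.73, with 8 higher and 2 lower of 20. ACTC1, cardiac alpha-actin, read 15924 at day 6, against 1704 at day 2, with 372 for BMP4 alone, 79.5 for pyruvate alone and 102 for E8, or 9.34-fold. ACTA2, smooth muscle alpha-actin, read 1658 at day 6, against 116 at day 2, with 33.0 for BMP4 alone, 158 for pyruvate alone and 78.7 for E8, or 14.3-fold. MYL4, the atrial myosin light chain of the embryo, read 842 at day 6, against 26.5 at day 2, with 20.6 for BMP4 alone, 28.2 for pyruvate alone and 26.4 for E8. It was detected at day 6 only, at least 16.5-fold higher. MYL7, another atrial light chain, was 3.02-fold higher, with 308 at day 6, against 102 at day 2. TAGLN, an actin-binding protein of smooth muscle, read 4717 at day 6, against 10694 at day 2, with 2920.5 for BMP4 alone, 825 for pyruvate alone and 999 for E8. It was 2.27-fold lower at day 6 than with both additions at day 2 but higher by 0.69 in log2 than with BMP4 alone, and its second probe differed by -2.19. CNN1, calponin, differed by -1.14 from day 2 with both additions and by 0.76 from BMP4 alone. ACTA1, skeletal alpha-actin, differed by -1.67 from day 2 with both additions and by 0.54 from BMP4 alone. For these 3 genes the day 2 array with both additions was the brightest of all 5.

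Some vascular and blood genes were present at day 6, while most defining ones were not measurable. Of 40 measured genes, 25 were undetected on both arrays, PECAM1, CDH5, TAL1 and RUNX1 among them. Of the 15 others, 9 were higher and 0 lower, and 7 were detected at day 6 only. The median was 1.08, but 0.05 over the 8 detected on both arrays. Against BMP4 alone, 10 were higher and 1 lower. LMO2, a LIM-only cofactor of blood and vessel formation, read 1494 at day 6, against 61.9 at day 2, with 65.9 for BMP4 alone, 56.1 for pyruvate alone and 52.5 for E8, or 24.2-fold. TEK, the angiopoietin receptor, read 745 at day 6, against 77.1 at day 2, with 44.5 for BMP4 alone, 38.0 for pyruvate alone and 45.2 for E8, or 9.66-fold, and ANGPT2, a ligand of that receptor, read 2014 at day 6, against 25.5 at day 2, with 21.9 for BMP4 alone, 23.9 for pyruvate alone and 23.5 for E8, at least 39.5-fold higher, with a dimmer probe at 4.15. VWF, von Willebrand factor of endothelium, read 853 at day 6, against 43.0 at day 2, with 51.0 for BMP4 alone, 46.4 for pyruvate alone and 64.5 for E8, at least 16.7-fold higher. Embryonic globin HBE1 read 422 at day 6, against 30.2 at day 2, with 34.7 for BMP4 alone, 29.4 for pyruvate alone and 47.7 for E8, at least 8.27-fold above day 2. The fetal globins HBG1 and HBG2, near-identical copies whose probes may not separate them, were weak at day 6 (78.3 and 100.3) and undetected on all day 2 arrays.

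Endoderm markers were also higher at day 6. Of 29 measured genes, 9 were undetected on both arrays, ALB, TTR and APOB among them, 16 were higher, 0 lower and 4 neither. The median was 2.15, or 1.61 over the 12 detected on both arrays, and 3.03 against BMP4 alone (17 higher and 1 lower). The mesoderm list above holds GATA4 and GATA6 too, and the streak list holds EOMES, LHX1, FOXA2 and CER1, so these counts overlap. SOX17, an HMG-box factor of definitive endoderm, read 753 at day 6, against 162 at day 2, with 53.1 for BMP4 alone, 21.7 for pyruvate alone and 21.5 for E8, or 4.65-fold. CXCR4, a chemokine receptor of endoderm and migrating mesoderm, read 371 at day 6, against 22.6 at day 2, with 21.1 for BMP4 alone, 25.9 for pyruvate alone and 23.8 for E8. It was detected at day 6 only, at least 7.28-fold higher, with a dimmer probe at 2.96. APOA1, an apolipoprotein of liver and yolk sac, was weak, with 141 at day 6, against 28.1 at day 2, at least 2.77-fold higher.

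Trophoblast and amnion genes gave a mixed picture. Of 62 measured genes, 33 were undetected on both arrays, among them the hormone gene CGA, the fusion factor GCM1, ELF5 and KRT7. Of the 29 others, 14 were higher and 6 were lower, the median being 0.82, or 0.56 over the 20 detected on both arrays. Against BMP4 alone, 17 of 28 were higher and 4 were lower, the median being 1.45. GATA3, an early trophoblast and amnion factor, was weak, with 135 at day 6, against 36.2 at day 2, with 48.9 for BMP4 alone, 26.9 for pyruvate alone and 27.3 for E8, at least 2.64-fold higher. TFAP2A, which BMP4 is known to induce early, read 2457 at day 6, against 2332 at day 2, with 2685 for BMP4 alone, 24.9 for pyruvate alone and 25.4 for E8. Its level was about the same on all 3 arrays with BMP4 and undetected without it. TFAP2C, its relative in trophoblast and germ cells, read 274 at day 6, against 1579 at day 2, with 2221 for BMP4 alone, 1443 for pyruvate alone and 1621 for E8, or 5.76-fold lower. The iron exporter gene SLC40A1 read 612 at day 6, against 25.5 at day 2, where it was undetected, with a dimmer probe at 2.54, and GABRP, a GABA receptor subunit listed for amnion, read 541 at day 6, against 61.4 at day 2, with 74.2 for BMP4 alone, 110.3 for pyruvate alone and 270.1 for E8, or 8.81-fold. HPGD, which breaks down prostaglandins and is abundant in placenta, read 163 at day 6, against 2214 at day 2, with 2643 for BMP4 alone, 135 for pyruvate alone and 83.7 for E8, or 13.6-fold lower. Here the 2 day 2 arrays with BMP4 were bright, and day 6 was near the level without it.

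Early neural genes went both ways. Of 35 measured genes, 14 were undetected on both arrays, PAX6 and SOX1 among them, 8 were lower, 6 higher and 7 neither, with a median of -0.62. Against BMP4 alone the counts were 7 lower and 6 higher of 20. SFRP2, a secreted WNT inhibitor, read 247 at day 6, against 5719 at day 2, with 4512 for BMP4 alone, 8412 for pyruvate alone and 6535 for E8, or 23.2-fold lower at day 6 than at day 2. SOX3, an HMG-box factor of neural progenitors, read 44.3 at day 6, against 478 at day 2, with 621 for BMP4 alone, 732 for pyruvate alone and 1622 for E8. Detection was lost at day 6, and the level was at least 8.19-fold lower. SIX6, an eye-field homeobox factor, read 27.8 at day 6, against 223 at day 2, with 202 for BMP4 alone, 1977 for pyruvate alone and 1757 for E8. It was undetected at day 6, at least 3.83-fold lower, and both day 2 arrays with BMP4 were far below those without. Among the higher genes, OTX2, a head homeobox factor, read 675 at day 6, against 103 at day 2, with 175 for BMP4 alone, 283 for pyruvate alone and 543 for E8, or 6.56-fold, close to its level in E8. NCAM1, a neural and mesodermal adhesion molecule, read 670.1 at day 6, against 35.7 at day 2, with 36.0 for BMP4 alone, 75.8 for pyruvate alone and 58.2 for E8, at least 13.1-fold above day 2, although a dimmer probe differed by only 1.37.

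HOX genes, which mark position along the body axis, were higher at day 6, nearly all from an undetected level. Of 27 measured HOX genes, 12 were undetected on both arrays, 10 were higher, 0 lower and 5 neither. Among the higher, HOXC8, HOXD10 and HOXA2 had bounds below 2-fold, at 1.51-fold, 1.64-fold and 1.27-fold. The 5 detected on both arrays had a median of 0.30, the other 10 being detected at day 6 only. The 10 members without a named probe were all of the HOXA cluster. Against BMP4 alone, 11 of 15 were higher and 0 lower. HOXB2 read 1304 at day 6, against 25.7 at day 2, with 22.9 for BMP4 alone, 23.3 for pyruvate alone and 23.8 for E8, at least 25.6-fold higher. HOXB5 read 1222 at day 6, against 43.8 at day 2, with 56.8 for BMP4 alone, 61.2 for pyruvate alone and 66.4 for E8, at least 24.0-fold above day 2. HOXC6 read 677 at day 6, against 38.2 at day 2, with 33.6 for BMP4 alone, 41.0 for pyruvate alone and 31.8 for E8, at least 13.3-fold. HOXB8 and HOXD11 were also detected at day 6 only (304 and 343), at least 5.97-fold and 6.73-fold higher. HOXB3 and HOXB4 differed by -0.03 and 0.06, although a dimmer HOXB3 probe differed by 2.11.

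Epithelial genes were lower and mesenchymal genes higher, though not throughout. Of 29 detected keratin and junction genes, 13 were lower and 3 higher, with a median of -0.71 (13 lower and 4 higher of 28 against BMP4 alone). CLDN7, a tight junction claudin, read 245 at day 6, against 2224 at day 2, with 1177 for BMP4 alone, 893 for pyruvate alone and 1662 for E8, or 9.06-fold lower. CLDN10 read 168 at day 6, against 2139.9 at day 2, with 1616 for BMP4 alone, 1544 for pyruvate alone and 1162 for E8, or 12.7-fold lower, and CLDN6 was 6.90-fold lower. ESRP1, which directs epithelial splicing, was 4.34-fold lower, with 115 at day 6, against 499.6 at day 2, and GRHL2, a grainyhead factor of epithelia, 3.82-fold lower. The simple epithelial keratin KRT8 read 6615 at day 6, against 7935 at day 2, which did not pass the size rule. E-cadherin, CDH1, singled out after its value was seen, differed by -1.36.

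The mesenchymal list gave 22 higher, 4 lower and 8 neither of 34 detected genes, with a median of 1.30, or 1.14 over the 24 detected on both arrays. Against BMP4 alone, 25 of 34 were higher and 3 lower. VIM, the intermediate filament vimentin, read 21205 at day 6, against 4438 at day 2, with 2163 for BMP4 alone, 2020.4 for pyruvate alone and 2271 for E8, or 4.78-fold, and its second probe differed by 2.42. CDH2, N-cadherin, read 11577 at day 6, against 2075 at day 2, with 2118 for BMP4 alone, 3306 for pyruvate alone and 3057 for E8, or 5.58-fold. CDH11, a mesenchymal cadherin, read 7007 at day 6, against 142 at day 2, with 88.0 for BMP4 alone, 193 for pyruvate alone and 124 for E8, or 49.4-fold. All 3 were brighter at day 6 than on each of the 4 day 2 arrays. LUM, a small proteoglycan, read 1405 at day 6, against 30.5 at day 2, at least 27.5-fold higher, with a dimmer probe at 2.97. ZEB2, a zinc finger factor of epithelial to mesenchymal transition, read 543 at day 6, against 25.5 at day 2, at least 10.6-fold higher. THBS2, a matrix thrombospondin, went the other way, with 23.4 at day 6, against 537 at day 2, with 389.7 for BMP4 alone, 1468 for pyruvate alone and 1339 for E8. The probe gave no detected signal at day 6, and the level was at least 9.21-fold lower.

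Collagen genes were more often higher than lower. Of 20 detected collagen genes, 8 were higher, 1 lower and 11 neither (12 and 1 of 20 against BMP4 alone). COL6A3 read 2280.4 at day 6, against 70.8 at day 2, with 76.0 for BMP4 alone, 68.3 for pyruvate alone and 60.7 for E8, or 32.2-fold. COL3A1 read 819 at day 6, against 31.1 at day 2, with 27.0 for BMP4 alone, 26.4 for pyruvate alone and 35.7 for E8. It was detected at day 6 only, at least 16.0-fold higher. COL5A1, 8.46-fold higher with 8482 at day 6, against 1003 at day 2, and COL1A1, 4.15-fold higher with 1066 at day 6, against 257 at day 2, were detected on all arrays. Interstitial COL1A2 and COL6A1 differed by 0.42 and -0.56, inside the size rule. Among collagens of the basement membrane, COL4A6 was 4.77-fold higher, with 2202 at day 6, against 461 at day 2, and COL4A5 3.17-fold, with 3619 at day 6, against 1143 at day 2, while COL4A1 and COL4A2 differed by 0.61 and 0.20. COL6A1, COL4A1 and COL4A2 were singled out after their values were seen, and neither kind of collagen moved throughout. Laminins and integrins had 6 higher and 2 lower of 21 (6 and 2 of 21 against BMP4 alone). NID2, nidogen, read 968 at day 6, against 32.6 at day 2, where it was undetected, while ITGA6, an integrin of stem cells, read 40.0 at day 6, against 183 at day 2, at least 3.13-fold lower.

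Targets of BMP signalling went both ways, with MSX1 higher and ID1 and ID3 lower. Of 25 detected genes of the list, which also holds BMP ligands, receptors and inhibitors, 8 were higher, 5 lower and 12 neither. Against BMP4 alone, 11 were higher and 2 lower. ID1, an inhibitor of helix-loop-helix factors and an immediate SMAD target, read 1929.5 at day 6, against 10105 at day 2, with 7444 for BMP4 alone, 2094 for pyruvate alone and 1924 for E8. It was 5.24-fold lower at day 6 and lay at the level of the cultures without BMP4. ID3, its close relative, read 3112 at day 6, against 8972 at day 2, with 5369 for BMP4 alone, 951 for pyruvate alone and 901 for E8, or 2.88-fold lower, still above the arrays without BMP4. ID2 read 3859 at day 6, against 3013 at day 2, with 3189 for BMP4 alone, 1185 for pyruvate alone and 1386 for E8. It did not pass the size rule, and its second probe differed by -0.48. Among ligands, BMP2 read 2542 at day 6, against 198 at day 2, with 48.2 for BMP4 alone, 106 for pyruvate alone and 95.1 for E8, or 12.8-fold higher, and BMP4 transcript, distinct from the protein added, read 215 at day 6, against 31.6 at day 2, with 29.9 for BMP4 alone, 23.7 for pyruvate alone and 26.1 for E8, at least 4.21-fold higher. GREM1, a BMP antagonist, read 45.5 at day 6, against 138 at day 2. Detection was lost at day 6, and the level was at least 2.36-fold lower.

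NODAL pathway genes were also unequal. Of 18 detected genes, 8 were higher and 3 lower (8 and 4 against BMP4 alone). LEFTY2, a secreted inhibitor of NODAL, read 1932 at day 6, against 205 at day 2, with 107 for BMP4 alone, 312 for pyruvate alone and 88.6 for E8, or 9.43-fold higher, while its neighbour LEFTY1 read 190.2 at day 6, against 597 at day 2, with 899.7 for BMP4 alone, 1984 for pyruvate alone and 659.7 for E8, or 3.14-fold lower. The LEFTY genes are near-identical copies, so their probes may not wholly separate them. GDF3, a ligand related to NODAL, read 202 at day 6, against 1780.0 at day 2, with 1101 for BMP4 alone, 1966 for pyruvate alone and 953 for E8, or 8.80-fold lower. CFC1, a co-receptor for NODAL, read 244 at day 6, against 28.7 at day 2, at least 4.77-fold higher, with a dimmer probe at 1.87.

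WNT genes were more often higher than lower, and secreted regulators stood at both ends of the list. Of 37 detected genes, 17 were higher and 8 lower, and 8 were detected at day 6 only. The counts were 17 higher and 4 lower of 36 against BMP4 alone. RSPO3, an R-spondin that strengthens WNT signals, read 1308 at day 6, against 26.4 at day 2, with 22.4 for BMP4 alone, 31.3 for pyruvate alone and 23.7 for E8, at least 25.6-fold higher. DKK1, an inhibitor of the WNT co-receptor, read 1702 at day 6, against 49.8 at day 2, with 28.5 for BMP4 alone, 27.2 for pyruvate alone and 29.4 for E8, at least 33.4-fold higher, although a dimmer probe differed far less. DKK4 read 1224 at day 6, against 30.8 at day 2, at least 24.0-fold. All 3 were undetected on every day 2 array. The secreted inhibitor SFRP2 was the lowest of the list, with 247 at day 6, against 5719 at day 2, or 23.2-fold lower. LEF1, the WNT-responsive DNA-binding factor, read 3788 at day 6, against 295 at day 2, with 81.8 for BMP4 alone, 62.4 for pyruvate alone and 58.6 for E8, or 12.9-fold higher. AXIN2, a feedback target, read 1769.6 at day 6, against 988 at day 2, with 926 for BMP4 alone, 1810.4 for pyruvate alone and 1669 for E8. It did not pass the size rule. WNT5A, a ligand of the non-canonical branch, was 14.1-fold higher, with 1739.6 at day 6, against 123 at day 2, and the receptor FZD7 7.39-fold, although its second probe differed by 0.54.

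FGF signalling had as many genes higher (6) as lower (6) among 23 detected (5 and 5 of 24 against BMP4 alone). FGF2, the growth factor that E8 also supplies, read 269 at day 6, against 904 at day 2, with 1357 for BMP4 alone, 1095 for pyruvate alone and 1129 for E8, or 3.36-fold lower. FGFR4 read 59.6 at day 6, against 601 at day 2, with 466 for BMP4 alone, 447 for pyruvate alone and 529 for E8, or 10.1-fold lower, with a dimmer probe at -1.85. Feedback inhibitors were brighter in part: DUSP6, a phosphatase of ERK, read 10631 at day 6, against 2361 at day 2, with 1888 for BMP4 alone, 3052 for pyruvate alone and 2935 for E8, or 4.50-fold higher, SPRY2 was 3.24-fold higher with 6249 at day 6, against 1931 at day 2, and SPRY1 2.65-fold, while SPRY4 and SPRED1, singled out after their values were seen, differed by 0.18 and 0.36. EGR1, an immediate target of ERK, was 3.44-fold higher than on the day 2 array compared (301, against 87.4) but differed by -0.46 in log2 from BMP4 alone (415). In the NOTCH list, 5 genes were higher and 2 lower of 15, against 2 and 4 of 15 with BMP4 alone. The median was 0.18 with both additions at day 2 and -0.38 with BMP4 alone. DLL3, a divergent NOTCH ligand of presomitic mesoderm, read 2339 at day 6, against 94.2 at day 2, with 181 for BMP4 alone, 529.7 for pyruvate alone and 572 for E8, or 24.8-fold higher, with its second probe at 2.08.

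**Figure D3:**
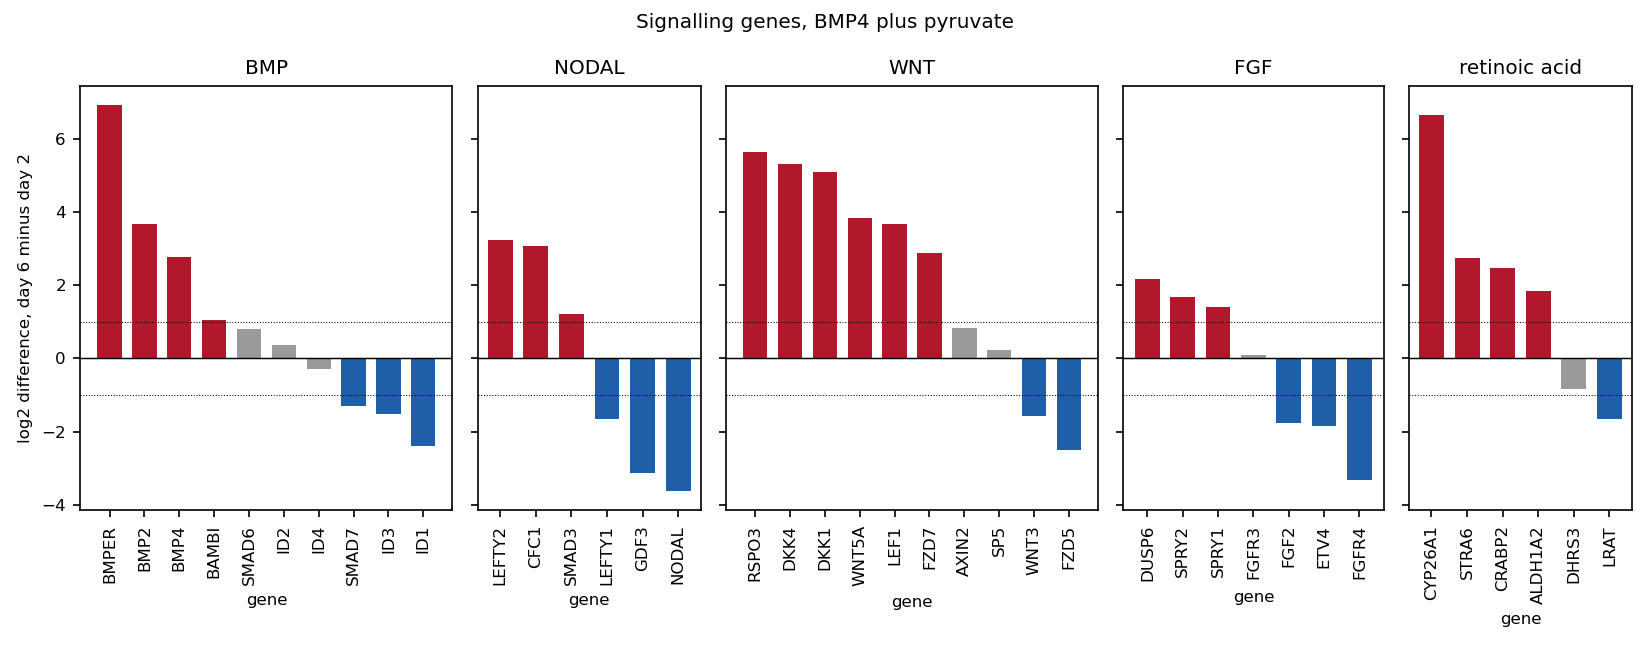
Bars give the log2 difference, day 6 minus day 2 of BMP4 plus pyruvate, for genes of 5 signalling pathways (chosen from the lists after their values were seen), in red where higher, blue where lower and grey where inside the 2-fold lines. BMPER, RSPO3, DKK4, DKK1 and CYP26A1 have the tallest bars, while ID1, NODAL, GDF3 and FGFR4 point down, and bars of genes undetected on 1 array, such as BMPER, rest on a signal near background.

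Retinoic acid genes were led by the enzyme that removes it. Of 15 detected genes, 5 were higher and 1 was lower, the median being 0.83 (8 higher and 2 lower of 15, median 1.05, against BMP4 alone). CYP26A1, which degrades retinoic acid and is itself a classical target of it, read 7611 at day 6, against 76.0 at day 2, with 156 for BMP4 alone, 302 for pyruvate alone and 525 for E8. It was 100.1-fold higher at day 6, lowest on the day 2 array compared, and its other probes differed by 5.85 and 2.79. STRA6, a retinol transporter, read 595 at day 6, against 88.8 at day 2, or 6.69-fold higher. CRABP2, which carries retinoic acid to its receptors, read 8848 at day 6, against 1597 at day 2, with 1800.1 for BMP4 alone, 1784 for pyruvate alone and 2456 for E8, or 5.54-fold higher. ALDH1A2, which makes retinoic acid in mesoderm, was weak, with 108 at day 6, against 30.4 at day 2, at least 2.12-fold higher. LRAT, which stores retinol as esters, read 36.1 at day 6, against 114 at day 2. Detection was lost at day 6, and the level was at least 1.95-fold lower.

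The 250 bases before the CYP26A1 start are shown because this gene had one of the largest differences of any gene detected on both arrays. RefSeq (GRCh38.p14) places them at chr10:93073643-93073892 on the + strand, and capitals mark a match to the direct repeat of retinoic acid receptors, AGTTCA, any 5 bases, AGTTCA, on the opposite strand, -90 to -74 from the start.
CYP26A1: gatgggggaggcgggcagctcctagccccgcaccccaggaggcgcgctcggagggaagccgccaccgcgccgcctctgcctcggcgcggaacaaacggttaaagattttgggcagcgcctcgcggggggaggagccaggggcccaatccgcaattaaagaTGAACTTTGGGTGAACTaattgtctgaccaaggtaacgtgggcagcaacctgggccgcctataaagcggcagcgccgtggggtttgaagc
Both strands were searched, and 3 of 35116 windows held the motif (0.00854%). The motif was chosen with this gene in mind and no other spelling was searched, so neither the match nor the small share is a result. RefSeq lists 2 starts for this gene, and the window of the matching one is printed.

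TXNIP, which binds thioredoxin and restrains glucose uptake, read 2572 at day 6, against 242 at day 2, with 858 for BMP4 alone, 648 for pyruvate alone and 1541 for E8. Day 6 was the brightest of the 5 arrays and the day 2 array compared the dimmest, 10.6-fold apart, and the difference from BMP4 alone was 1.58 in log2. Its relative ARRDC3 read 389 at day 6, against 54.1 at day 2, or 7.19-fold higher, with a second probe at 0.59, and ARRDC4, a further member of the family and a target of the same sugar sensor, differed by 0.78, with a second probe at 1.65. The TXNIP promoter is known for carbohydrate response elements, read by the glucose-sensing factors MLXIP and MLXIPL. The 250 bases before the start lie at chr1:145996580-145996829 on the - strand (RefSeq, GRCh38.p14), and capitals mark the match to CACGAG, any 5 bases, CACGAG, -88 to -72 from the start.
TXNIP: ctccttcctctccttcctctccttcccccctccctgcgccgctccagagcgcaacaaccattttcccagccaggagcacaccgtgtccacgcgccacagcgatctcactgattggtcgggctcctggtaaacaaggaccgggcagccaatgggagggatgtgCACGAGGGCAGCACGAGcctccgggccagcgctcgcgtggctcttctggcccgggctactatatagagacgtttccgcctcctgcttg
Of 35116 windows searched on both strands, 2 held the motif (0.0057%), and RefSeq lists 2 starts for the gene. As this spelling alone was searched and was chosen for TXNIP, the match and its small share are not a result. No binding was measured.

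Glycolysis genes passed the size rule about as often as all genes (26.4% in either direction). Of 23 detected genes, 2 were higher, 3 lower and 18 neither, with a median of -0.29 (2 higher, 2 lower and a median of -0.05 against BMP4 alone). SLC2A1, the glucose transporter GLUT1, read 1359 at day 6, against 4525 at day 2, with 2145 for BMP4 alone, 2897 for pyruvate alone and 2038 for E8, or 3.33-fold lower, and was brightest on the day 2 array compared. HK2, the inducible hexokinase, read 291 at day 6, against 807 at day 2, with 721 for BMP4 alone, 1368 for pyruvate alone and 1354 for E8, or 2.77-fold lower, with a second probe at -0.45. GPI, the isomerase of the next step, was 2.32-fold lower but differed by -0.46 in log2 from BMP4 alone, inside the size rule. ENO3, muscle enolase, read 885 at day 6, against 159.5 at day 2, with 242 for BMP4 alone, 203 for pyruvate alone and 234 for E8, or 5.55-fold higher. PKM, which makes pyruvate, read 9757 at day 6, against 4751 at day 2, with 2901 for BMP4 alone, 2543 for pyruvate alone and 2717 for E8, or 2.05-fold higher. Its other probes differed by 0.94 and 0.27, and the mean over its detected probes was 0.75, inside the size rule. LDHA, which turns pyruvate into lactate, read 17293 at day 6, against 14671 at day 2, also inside it. The SLC2A1 and HK2 values were the lowest of the 5 arrays at day 6, while ENO3 and PKM were the highest.

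Genes that use pyruvate differed in few members. Of 21 detected genes, 2 were higher, 0 lower and 19 neither, with a median of 0.08 (3 and 1 of 20 against BMP4 alone). PDK4, a kinase that shuts off pyruvate dehydrogenase, was weak, with 115 at day 6, against 24.1 at day 2, with 29.1 for BMP4 alone, 24.8 for pyruvate alone and 24.4 for E8, at least 2.25-fold higher. PC, pyruvate carboxylase, read 104 at day 6, against 47.4 at day 2. It was at least 2.04-fold higher, but a second probe differed by -0.30. PDHA1, a subunit of pyruvate dehydrogenase, read 2154 at day 6, against 1978 at day 2, with 2009.7 for BMP4 alone, 2398 for pyruvate alone and 1962 for E8, and MPC1 of the mitochondrial pyruvate carrier read 1595 at day 6, against 1580.3 at day 2, with 878 for BMP4 alone, 2415 for pyruvate alone and 1650.4 for E8. Neither passed the size rule. In the citric acid cycle, 1 of 21 genes was lower and 0 higher, with a median of -0.41 (1 lower and 0 higher of 21 against BMP4 alone). SUCLG1, a succinyl-CoA ligase subunit, was the lower one, at 2.26-fold, and CS, citrate synthase, differed by -0.85. Respiratory chain genes gave 1 higher and 4 lower of 55, with a median of 0.02 (0 and 2 of 54 against BMP4 alone), and the cytochrome oxidase subunit COX4I1 read 13739.9 at day 6, against 13925 at day 2.

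AMPK and mTOR genes passed the size rule in shares near the background of 13.5% and 13%. Of 37 detected genes, 5 were higher and 4 were lower, the median being -0.07 (4 and 4 of 36, median 0.05, against BMP4 alone). The median also turned positive with scaling to the 75th percentile (0.06), but that setting moved the median over all genes from -0.01 to 0.11. PRKAA1, a catalytic subunit of AMPK, differed by -0.04, although a dimmer probe was higher, MTOR by -0.58 and TSC2, a brake on mTOR complex 1, by -0.84. SESN3, a sestrin that restrains mTOR complex 1, read 369.6 at day 6, against 28.9 at day 2, with 55.1 for BMP4 alone, 43.8 for pyruvate alone and 99.4 for E8, at least 7.25-fold higher. CAMKK2, a kinase that can activate AMPK, read 89.9 at day 6, against 519 at day 2, with 339.8 for BMP4 alone, 162 for pyruvate alone and 174 for E8, or 5.77-fold lower. RRAGD, a GTPase that links amino acids to mTOR, read 210.3 at day 6, against 887 at day 2, with 1337 for BMP4 alone, 1222 for pyruvate alone and 2121 for E8, or 4.22-fold lower. RRAGD and SESN3 were far from their levels on all 4 day 2 arrays, while CAMKK2 was brighter on the 2 day 2 arrays with BMP4 than on those without.

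The count of ATF4 targets depended on the day 2 array used. Of 35 detected ATF4 targets, which serve amino acid supply, 1 was higher and 8 lower, but 2 higher and 0 lower of 34 against BMP4 alone. SLC3A2, a subunit of amino acid transporters, read 2028 at day 6, against 5650.0 at day 2, with 2683 for BMP4 alone, 2615 for pyruvate alone and 2071 for E8, or 2.79-fold lower, and ASNS, asparagine synthetase, read 2945 at day 6, against 7757 at day 2, with 5639 for BMP4 alone, 4169.9 for pyruvate alone and 3954 for E8, or 2.63-fold lower. Both were brightest on the day 2 array compared. In the hypoxia list, 7 genes were higher and 3 lower of 26, with a median of 0.52 (6, 2 and 0.68 against BMP4 alone). LOX, which crosslinks collagen, was 6.10-fold higher, with 448 at day 6, against 73.4 at day 2, and NDRG1 4.17-fold, with 329 at day 6, against 78.7 at day 2, whereas VEGFA differed by -0.05 and BNIP3 by 0.49.

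Metal-binding metallothioneins were lower at day 6 in part. Of 11 detected genes of the list, 7 were lower and 2 higher, counting metallothioneins and zinc genes, with a median of -1.24 (7 lower and 1 higher, median -1.83, against BMP4 alone). Without background correction 3 were lower and the median was -0.46. MT1X read 58.4 at day 6, against 279 at day 2, with 729.7 for BMP4 alone, 807 for pyruvate alone and 1882 for E8, or 4.78-fold lower. MT1F read 175 at day 6, against 545 at day 2, with 2358 for BMP4 alone, 1409.8 for pyruvate alone and 4107 for E8, or 3.12-fold lower, and MT2A was 2.62-fold lower. MT1H, undetected at day 6, was at least 1.13-fold lower. MT1G, by contrast, read 67.2 at day 6, against 86.7 at day 2, with 892 for BMP4 alone, 474 for pyruvate alone and 2584 for E8, and MT1E read 172 at day 6, against 188 at day 2, with 610.0 for BMP4 alone, 245 for pyruvate alone and 1229 for E8. Neither passed the size rule against the day 2 array compared, which was itself far below E8. Metallothionein genes are close copies, and their probes may share signal. The other lower genes of the list were the metal-sensing factor MTF1 (2.00-fold), the zinc exporter SLC30A1 (at least 2.17-fold, but -0.19 by a dimmer probe) and the zinc importer SLC39A14 (2.72-fold, with 829 at day 6, against 2254 at day 2), and SLC39A10 was 2.04-fold higher but differed by -0.28 in log2 against BMP4 alone.

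Hyaluronan synthases went opposite ways. Their list, shared with the arrestins, gave 3 higher and 2 lower of 10 (4 and 3 of 10 against BMP4 alone). HAS2 read 5115 at day 6, against 908 at day 2, with 157 for BMP4 alone, 305 for pyruvate alone and 79.3 for E8, or 5.64-fold higher, and HAS3 read 147 at day 6, against 1430.3 at day 2, with 848 for BMP4 alone, 1985 for pyruvate alone and 1238 for E8, or 9.74-fold lower. HAS2 makes the long hyaluronan of embryonic heart cushions. Day 6 was the brightest of the 5 arrays for HAS2 and the dimmest for HAS3.

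Many DNA replication genes were lower, while few mitosis genes passed the size rule. Of 43 detected replication genes, 18 were lower, 0 higher and 25 neither, with a median of -0.94. Against BMP4 alone, 12 of 42 were lower and 0 higher, with a median of -0.77. MCM5, a subunit of the replicative helicase, read 445 at day 6, against 2517 at day 2, with 1112 for BMP4 alone, 1161 for pyruvate alone and 1184 for E8, or 5.66-fold lower. RRM2, a subunit of ribonucleotide reductase, read 140.0 at day 6, against 589 at day 2, with 239.7 for BMP4 alone, 325 for pyruvate alone and 240.4 for E8, or 4.20-fold lower. PCNA, the sliding clamp, read 3347 at day 6, against 5211 at day 2, with 5216 for BMP4 alone, 6426 for pyruvate alone and 5234 for E8. It did not pass the size rule. MCM5 and RRM2 were brightest on the day 2 array compared and lowest at day 6. Of 40 mitosis genes, 3 were lower and 1 higher, with a median of -0.26 (2 lower and 0 higher of 40 against BMP4 alone). CDK1, the kinase of mitotic entry, differed by -0.03, its cyclin CCNB1 read 1860.1 at day 6, against 1862 at day 2, and MKI67, a proliferation antigen, differed by -1.59, with 113 at day 6, against 339.7 at day 2. Among regulators of the G1 phase, cyclin D1 (CCND1) read 3067 at day 6, against 8549.8 at day 2, with 8654 for BMP4 alone, 7957 for pyruvate alone and 7592 for E8, or 2.79-fold lower. The inhibitor CDKN1C read 519 at day 6, against 249 at day 2, with 370.3 for BMP4 alone, 291 for pyruvate alone and 457 for E8, or 2.08-fold higher. CDKN1C was dimmest on the day 2 array compared and differed by 0.49 in log2 from BMP4 alone, inside the size rule.

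Many ribosome biogenesis genes were lower, and few ribosomal protein genes passed the size rule. Of 30 detected biogenesis and MYC genes, 15 were lower and 2 higher, with a median of -0.97, and 8 lower and 2 higher (median -0.79) against BMP4 alone. NOP16, a nucleolar protein, read 203 at day 6, against 886 at day 2, with 676 for BMP4 alone, 847 for pyruvate alone and 638 for E8, or 4.35-fold lower, and NOP56, of small nucleolar particles, was 2.68-fold lower, with a second probe at -1.07. MYC differed by -0.83, inside the size rule, while MXD4, an antagonist of MYC, read 1795 at day 6, against 212 at day 2, with 561 for BMP4 alone, 282 for pyruvate alone and 408 for E8, or 8.48-fold higher. Ribosomal protein genes gave 2 lower and 0 higher of 47, with a median of 0.00 (2 lower and 0 higher of 47 against BMP4 alone).

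**Figure D4:**
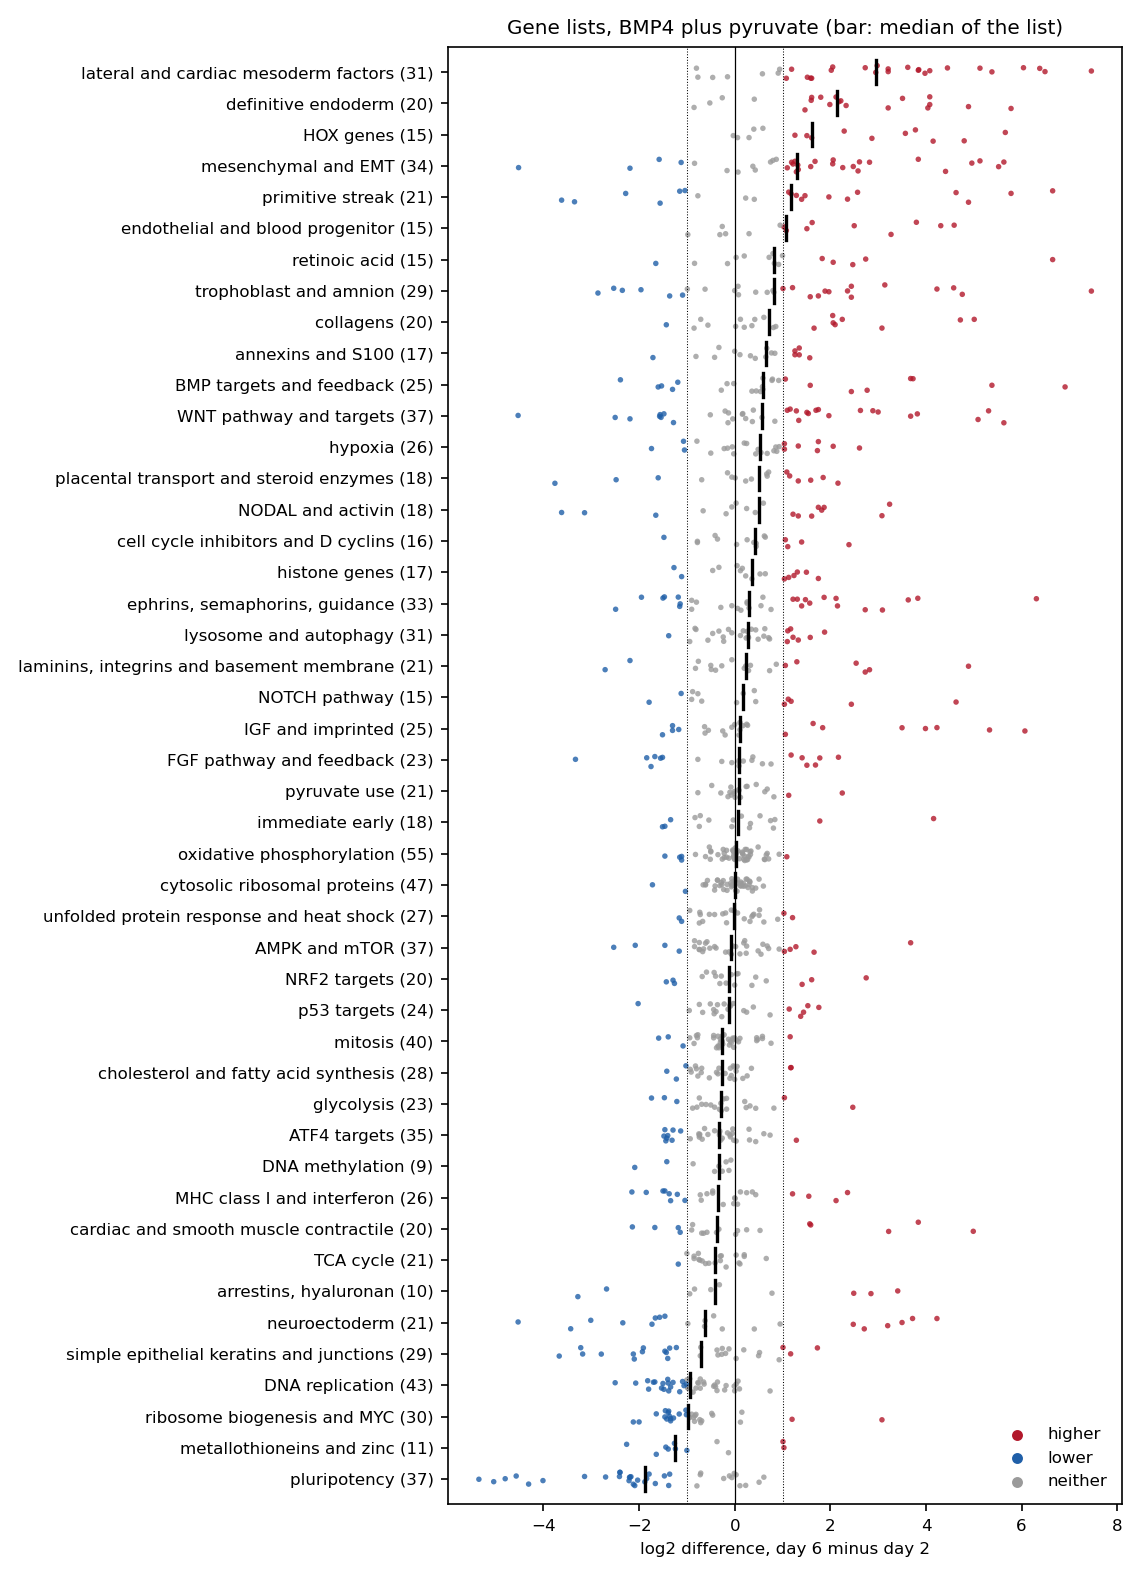
Each row is a gene list with the number of members detected on either array, each point a gene's log2 difference, day 6 minus day 2 of BMP4 plus pyruvate, and the bar the list's median, ordered by it. Lateral and cardiac mesoderm, definitive endoderm and HOX genes are at the top with medians of 2.95, 2.15 and 1.61, and pluripotency genes at the bottom with -1.88, while oxidative phosphorylation and ribosomal proteins centre on 0. Without background correction the medians of those 3 top lists were 1.31, 1.52 and 0.50, the last below the mesenchymal (0.80), streak (0.72) and retinoic acid (0.58) lists.

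The choice of the day 2 array moved some lists more than others. The primitive streak list had 12 higher and 6 lower genes with both additions at day 2, and 16 and 2 with BMP4 alone. Medians of 8 lists changed sign. They were those of the AMPK and mTOR list (-0.07 with both additions at day 2 and 0.05 with BMP4 alone), contractile genes, NOTCH, arrestins and hyaluronan (-0.41 and 0.74), NRF2 targets (-0.12 and 0.27), p53 targets (-0.12 and 0.21), oxidative phosphorylation (0.02 and -0.08) and the unfolded protein list (-0.01 and 0.37). The medians of pluripotency, mesoderm, endoderm, HOX, epithelial, replication and ribosome biogenesis genes kept their sign.

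**Figure D5:**
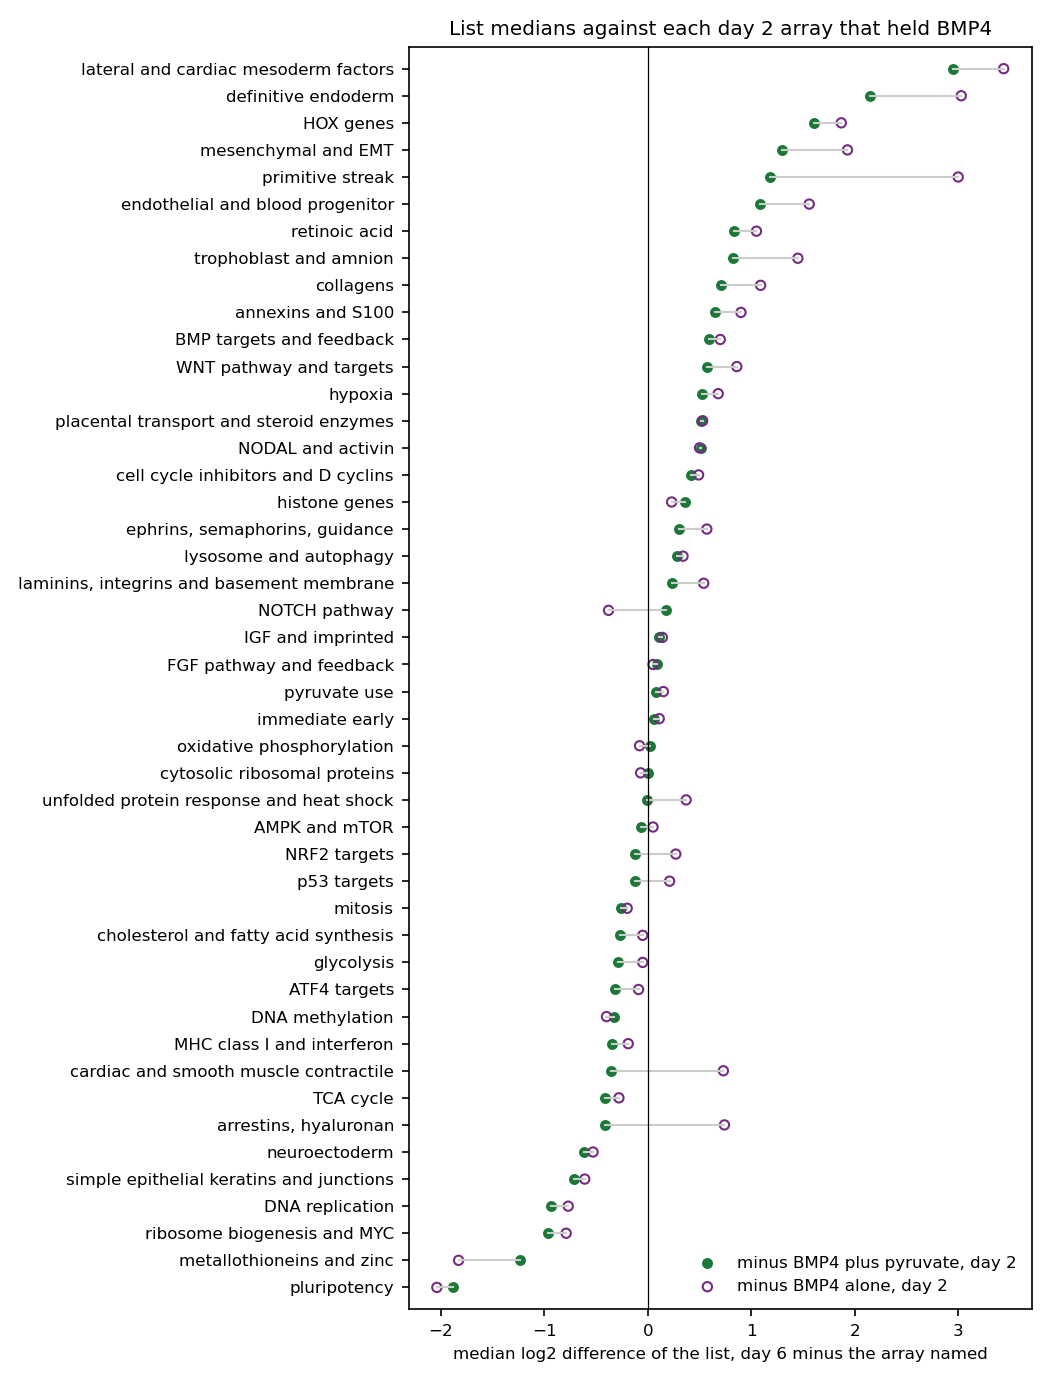
For each gene list (rows), the median log2 difference of the day 6 array from the day 2 array of BMP4 plus pyruvate (filled) and from the day 2 array of BMP4 alone (open), both sharing the day 6 array. The points lie far apart for primitive streak, contractile and arrestin and hyaluronan genes and close together for pluripotency, HOX and epithelial genes.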

How the data were processed

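RNA from 5 H1 cultures, labelled with biotin through a TargetAmp-Nano kit per the labels, was measured on Illumina BeadChips, 1 array for each condition. The authors' deposited tables gave a bead intensity and a detection p-value for each of 47296 probes per the file headers, with no normalization, and a second table of log2 values whose making is not given in the sources used here. Of the probes, 30105 name 1 gene in the platform annotation, 8 name several and 17183 name none, and 30066 matched RefSeq (GRCh38.p14) by Entrez ID. All per-sample columns were used, and 35.6% of probes were detected at day 6, against 37.9% at day 2.

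Here intensities were background corrected from the detection p-values, offset by 16, quantile normalized over the 5 arrays and put on the log2 scale with neqc of limma 3.58.1 (R 4.3.3), then summarised in Python 3.11.15. Each gene was read from its probe with the highest mean log2 signal over the 5 arrays, and for the genes described it is stated where a further detected probe differed by more than 1 in log2. Folds are ratios of normalized signals, which the offset of 16 makes smaller for dim genes. With 1 array a side no test of any kind was run. The procedure was checked on simulated data, where 199 of 200 set changes were recovered. Those changes were set in bright, detected probes only and the noise was a chosen value. The check therefore does not speak for dim genes and gives no error rate for these arrays.

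The text names, by rule, the 20 genes with the largest differences each way detected on both arrays, the 12 with the largest bounds each way, the first 3 and up to 8 further members of each list and 15 lineage markers, which came to 493 genes, of which the text gives a selection. The comparison, the 46 gene lists (1441 genes, 1346 of them with a named probe) and the rule were chosen with earlier results of these data known. Promoter windows of 250 bases came from RefSeq. The alternatives were no background correction, scaling to the 75th percentile, normalizing the 2 arrays alone, the deposited log2 values, an offset of 50, the mean of a gene's detected probes, a detection p below 0.05, detection on both arrays, a log2 size of 2, and BMP4 alone as the day 2 array.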

Additional observations from a re-analysis of the deposited data

How the results depend on the processing

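The 1571 higher and 1511 lower genes became 712 and 572 without background correction, 1168 and 1056 with an offset of 50, 1062 and 990 among genes detected on both arrays, and 476 and 319 at a log2 size of 2. With scaling to the 75th percentile the median over all genes was 0.11, against -0.01, and the counts were 1828 and 1302, so differences under it are to be read relative to that shift. The other settings gave 1591 and 1537 (2 arrays alone), 1343 and 1254 (deposited log2 values), 1512 and 1523 (mean of probes) and 1622 and 1524 (detection p below 0.05). With BMP4 alone at day 2 the counts were 1372 and 1255. Of the 493 genes named by rule, none reversed under the alternatives that keep the same 2 arrays (379 of them could be read where detection on both was asked), and 7 reversed with BMP4 alone at day 2, where ACTA1 differed by 0.54, CNN1 by 0.76, EGR1 by -0.46, MIXL1 by 2.18, SLC39A10 by -0.28, TAGLN by 0.69 and TBXT by 1.03. These are levels of another culture, and the cause was not tested. Loss of the call was more frequent. It came to 106 of the 493 genes without background correction, 51 with an offset of 50, 171 at a log2 size of 2, 17 each with the deposited log2 values and with scaling to the 75th percentile, 13 with the mean of probes, 3 with the 2 arrays alone and 59 with BMP4 alone. Of the 59, the higher genes described here were BST2, CDKN1C and GAS1. The lower ones were ASNS, FADS2, GPI, GREM1, ID3, MTF1, RRM2, SLC2A1, SLC39A14, SLC3A2 and SUCLG1. Among genes of the 493 that are described here, those without a call once background correction was left out were ALDH1A2, APOA1, CDKN1C, CNN1, EGR1, FADS2, GATA3, GATA6, GREM1, HBG1, HBG2, HLA-B, HOXC8, HOXD10, ITGA6, KDR, LRAT, MIXL1, MKI67, MT1H, MT2A, MTF1, MYL7, PC, PDK4, SLC30A1, SLC39A10 and TAP1. Of 46 list medians, 5 crossed a size of 1 without background correction, among them HOX genes (0.50, against 1.61) and metallothioneins and zinc (-0.46, against -1.24), and none changed sign among lists with a median of 1 or more. No paired analysis was possible because each condition had 1 array. Leaving out a replicate was not possible either. Signal near background limits the dim genes, for which folds are bounds.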

Other observations

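Genes of cell guidance were more often higher than lower at day 6. Of 33 detected ephrin, semaphorin and netrin genes, 13 were higher and 7 lower, with 6 detected at day 6 only (12 and 5 of 33 against BMP4 alone). NRP1, a co-receptor for VEGF and semaphorins, read 2291 at day 6, against 28.9 at day 2, with 26.0 for BMP4 alone, 25.6 for pyruvate alone and 26.5 for E8, at least 44.9-fold higher, with a dimmer probe at 2.16. NRP2 read 603 at day 6, against 70.9 at day 2, or 8.51-fold, with dimmer probes between 0.38 and 1.29. EPHA4, an ephrin receptor, read 934 at day 6, against 75.3 at day 2, with 91.9 for BMP4 alone, 136 for pyruvate alone and 69.2 for E8, or 12.4-fold higher, and EPHA1 read 430.4 at day 6, against 2417 at day 2, with 1785 for BMP4 alone, 2674 for pyruvate alone and 2361 for E8, or 5.62-fold lower. Day 6 lay apart from all 4 day 2 arrays for both ephrin receptors. The insulin-like growth factor and imprinted list gave 8 higher and 4 lower of 25 (7 and 1 of 23 against BMP4 alone). H19, an imprinted non-coding RNA of mesoderm and placenta, read 2588 at day 6, against 38.5 at day 2, with 31.4 for BMP4 alone, 79.1 for pyruvate alone and 79.5 for E8, at least 50.7-fold higher. IGFBP3, which binds insulin-like growth factors, read 1625 at day 6, against 86.6 at day 2, with 62.7 for BMP4 alone, 76.6 for pyruvate alone and 74.7 for E8, or 18.8-fold higher, with a second probe at 3.75. DLK1, a further imprinted gene, was 11.3-fold higher, with 1093 at day 6, against 96.4 at day 2 and a dimmer probe at 2.33, and IGFBP5 15.8-fold, with 2439 at day 6, against 154 at day 2.

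Antigen presentation genes were dimmer in part. Of 26 detected MHC class I and interferon genes, 8 were lower and 4 higher (4 lower and 4 higher against BMP4 alone). TAP1, a peptide transporter, read 63.5 at day 6, against 228 at day 2, with 223 for BMP4 alone, 469 for pyruvate alone and 369.6 for E8, or 3.59-fold lower, and HLA-B read 103 at day 6, against 260.4 at day 2, with 225 for BMP4 alone, 314 for pyruvate alone and 216 for E8, or 2.53-fold lower. BST2, an interferon-induced membrane protein, was 5.13-fold higher, with 321 at day 6, against 62.7 at day 2, though BMP4 alone (224) lay near day 6. Lysosome and autophagy genes gave 7 higher and 1 lower of 31 (3 and 1 against BMP4 alone). WIPI1, which acts in autophagosome formation, read 1408 at day 6, against 383 at day 2, with 329 for BMP4 alone, 303 for pyruvate alone and 347 for E8, or 3.67-fold higher, and the cathepsin CTSL read 2310.0 at day 6, against 772 at day 2, with 764 for BMP4 alone, 1124 for pyruvate alone and 952 for E8, or 2.99-fold higher, with other probes at 1.52 and 0.36. KLF2, a factor of endothelium and naive stem cells on the immediate early list, read 1721 at day 6, against 96.5 at day 2, with 91.4 for BMP4 alone, 104 for pyruvate alone and 56.4 for E8, or 17.8-fold higher, while that list gave 2 higher and 3 lower of 18 (2 and 1 of 17 against BMP4 alone).

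The p53 targets gave 5 higher and 1 lower of 24 (6 and 1 of 24 against BMP4 alone). CDKN1A, the cell cycle inhibitor p21, read 1849 at day 6, against 2379 at day 2, inside the size rule, and PMAIP1, a pro-death protein of the BCL2 family, was 4.05-fold lower, with 558 at day 6, against 2263 at day 2, with 4218 for BMP4 alone, 3462 for pyruvate alone and 3959 for E8. Cell cycle inhibitors and D cyclins gave 4 higher and 1 lower of 16 (3 and 1 of 15 against BMP4 alone). GAS1, a growth arrest gene, read 645 at day 6, against 123 at day 2, with 385 for BMP4 alone, 212 for pyruvate alone and 255 for E8, or 5.25-fold higher. It was dimmest on the day 2 array compared and differed by 0.74 in log2 from BMP4 alone, inside the size rule. Histone genes gave 6 higher and 2 lower of 17 (4 and 0 of 16 against BMP4 alone), led by H2BC12 at 3.36-fold, and DNA methylation genes 0 and 2 of 9 (0 and 3 of 9 against BMP4 alone). Annexins and S100 genes gave 5 higher and 1 lower of 17 (9 and 2 of 18 against BMP4 alone). S100A10 read 15784 at day 6, against 6198 at day 2, with 6178 for BMP4 alone, 9856 for pyruvate alone and 8180.2 for E8, or 2.55-fold higher. ANXA1 read 2639 at day 6, against 2106 at day 2, with 829 for BMP4 alone, 137 for pyruvate alone and 79.9 for E8, near-equal between the 2 days and far above the cultures without BMP4. Placental transport and steroid genes gave 6 higher and 3 lower of 18 (7 and 4 of 18 against BMP4 alone). SLCO2A1, a prostaglandin transporter, read 4682 at day 6, against 1051 at day 2, with 617 for BMP4 alone, 237 for pyruvate alone and 187 for E8, or 4.45-fold higher, opposite to the prostaglandin enzyme HPGD.

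Cholesterol and fatty acid synthesis gave 2 higher and 3 lower of 28 (2 and 0 of 28 against BMP4 alone), NRF2 targets 3 and 3 of 20 (5 and 1 of 19 against BMP4 alone), and the unfolded protein and heat shock list 2 and 2 of 27 (4 and 2 of 27 against BMP4 alone). AKR1C3, a reductase among NRF2 targets, was 6.73-fold higher, with 683 at day 6, against 101 at day 2, and FADS2, a fatty acid desaturase, 2.68-fold lower, with 126 at day 6, against 338 at day 2. Against BMP4 alone, FADS2 differed by -0.33 in log2, inside the size rule. Small non-polyadenylated RNAs, 103 of which were detected, gave 6 higher and 21 lower with a median of -0.38, and -0.70 against BMP4 alone. Of 3978 detected probes without a gene name, 367 were higher and 509 lower, or 22% past the size rule.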
